A study of Homo sapiens with 12 samples.

Results

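The genes of cytosolic ribosomal proteins were followed through differentiation to airway epithelium in RUES2, an established line of human embryonic stem cells. They were chosen by symbol (RPL, RPS or RPLP with a number), pseudogenes left out, and 57 of the 23786 probe sets on the array carried such a name. Of these 57 genes, 34 encode proteins of the large (60S) subunit, 16 encode proteins of the small (40S) subunit, and 7 are paralogs of another ribosomal protein gene (RPL3L, RPL7L1, RPL10L, RPL22L1, RPL26L1, RPL39L and RPS27L). The current RefSeq annotation holds 83 genes whose symbols have this form, and those without a named probe set, among them the stalk proteins RPLP1 and RPLP2 and the genes RPL7, RPL39 and RPS27, are not analysed here.

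Expression was measured on 12 arrays in 5 groups. Undifferentiated RUES2 cells (day 0, n = 2) were turned into definitive endoderm, then anterior foregut endoderm, then lung progenitors. These were sorted for high CD47 (day 15 CD47hi, n = 2), grown on in medium with low Wnt activity (day 22, n = 2), and sorted at day 36 into cells without (SCGB3A2-, n = 3) and with (SCGB3A2+, n = 3) SCGB3A2, a secretoglobin of airway epithelium. No treatment or genetic change was named for any group, all cells came from 1 line, and the titles name no sort at day 0 or day 22, so the effects of sorting and of differentiation cannot be told apart there. The labels do not say whether replicates are separate cultures, so p-values reflect only how far these arrays differ, which may be technical in origin.

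A ribosome is built from several ribosomal RNAs and a large set of proteins. RNA polymerase I makes most of the ribosomal RNA in the nucleolus, processing and assembly factors trim and fold it, and ribosomal proteins join the growing particles in step. The mRNAs of ribosomal proteins begin with a run of pyrimidines, the 5′ terminal oligopyrimidine (TOP) tract, through which mTORC1 and LARP1 control their translation. Stem cells are known for many nucleoli and high ribosome production while holding translation low, and some paralogs replace their partner in the ribosome of certain tissues, such as RPL3L in muscle and RPL39L and RPL10L in the male germ line.

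RefSeq promoter windows (GRCh38.p14, 250 bases before to 50 bases after each annotated start) were found for 47 of the 57 genes. A TOP start was counted where the first base was C and at least 4 further C or T followed, in any window of the gene. It was present in 31 of the 47 genes (66.0%), against 1404 of 27305 genes in the whole table (5.14%). The share was 20 of 28 for 60S genes, 10 of 14 for 40S genes and 1 of 5 for the paralogs. An annotated start can lie some bases from the true one, so a gene without the tract here may still have one.

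The stretches from 30 bases before the start to 20 bases from it are shown for canonical genes that were higher at day 15 (RPS19, RPL18), lower in SCGB3A2+ than in SCGB3A2- cells (RPS16) or highest at day 0 (RPL36A, RPS26), and for paralogs beside a canonical gene. Capitals mark the unbroken run of C and T that begins at the annotated first base, and a sequence without capitals begins with a purine. RPS19 lies at chr19:41860225-41860274 (plus strand), RPL18 at chr19:48619159-48619208 (minus strand) and RPS16 at chr19:39435930-39435979 (minus strand). RPL36A lies at chrX:101390981-101391030 (plus strand) and RPS26 at chr12:56041888-56041937 (plus strand). The canonical RPL22 lies at chr1:6199576-6199625 (minus strand), its paralog RPL22L1 at chr3:170870176-170870225 (minus strand), and the paralog RPS27L at chr15:63157458-63157507 (minus strand).
RPS19: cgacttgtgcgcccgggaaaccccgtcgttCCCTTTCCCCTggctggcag
RPL18: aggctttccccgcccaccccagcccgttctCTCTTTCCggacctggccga
RPS16: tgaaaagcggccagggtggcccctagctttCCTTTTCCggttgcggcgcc
RPL36A: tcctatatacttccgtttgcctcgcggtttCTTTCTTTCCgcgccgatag
RPS26: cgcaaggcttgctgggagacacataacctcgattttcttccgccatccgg
RPL22: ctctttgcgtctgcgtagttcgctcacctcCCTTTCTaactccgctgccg
RPL22L1: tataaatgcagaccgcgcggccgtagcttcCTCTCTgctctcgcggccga
RPS27L: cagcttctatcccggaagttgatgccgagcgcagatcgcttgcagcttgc
The run was 11 bases long in RPS19, 8 in RPL18 and RPS16, and 10 in RPL36A. RPL22 and its paralog RPL22L1 both had one, of 7 and 6 bases, whereas RPS27L and RPS26 began with a purine in this annotation.

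Short motifs were counted on both strands of the 59 member windows, which overlap where a gene has several starts. The ETS-type motif CCGGAA was present in 30 of 59 member windows (50.8%), against 17.2% of all 35116 windows. The motif GCCATNTT (N stands for any base), known from the factor YY1, was present in 7 (11.9%, against 6.58%), and GGGCGG, the core of Sp1 sites, in 34 (57.6%, against 45.0%). The E-box CACGTG was present in 4 (6.78%, against 7.26%) and TATAAA in 4 (6.78%, against 11.5%). These are matches of letters in a window and were not tested for binding.

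Levels are RMA log2 values, in which a step of 1 is a doubling of signal, and differences are those of group means ± the standard error (SE) of limma's fit. RMA makes the distributions of the arrays nearly alike, so a change in the total RNA of a cell cannot be seen, and in these bulk samples fewer cells of a type and less RNA per cell cannot be told apart. By mean signal over the 12 arrays, 26 of the 57 genes lay in the brightest 20% of all probe sets (above 6.12), 24 of them in the brightest 10%, and 9 lay below the median. RPL10, RPL10L, RPL13A, RPL26, RPL3, RPL3L and RPS3A stayed below 2.96, the 40th percentile of all values, in every group mean, and 50 of 57 thus passed a filter at that level. RPL3, RPL10, RPL26 and RPS3A are canonical genes, so a low signal here does not mean that a transcript was absent, and no level is compared between genes. Ribosomal protein genes have many near-identical processed pseudogenes, and probe sequences were not used here, so a probe set may carry signal of such copies.

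Some of the markers chosen for the labelled cell types are given first. POU5F1, SOX2, LIN28A, SFTPB and the mesenchyme genes COL1A1 and COL3A1 were also chosen but are left out, so mesenchymal content is not described. NANOG stood at 5.88 and 8.12 on the day 0 arrays and at 1.11 to 2.05 on all others, and FOXA2 had means of 3.998 at day 0 and 7.43 at day 15. NKX2-1, the lung transcription factor, stood at 6.78 at day 15, 6.88 at day 22, 4.13 in SCGB3A2- and 7.63 in SCGB3A2+ cells. SCGB3A2 was 2.06 to 2.70 on the SCGB3A2- and 8.89 to 9.39 on the SCGB3A2+ arrays, but also 7.24 and 7.05 at day 0. The liver genes AFP and ALB were above 9 in every group from day 22 on, and the blood gene PTPRC and the endothelial genes CDH5 and PECAM1 stayed between 1.08 and 2.94 on all arrays. The 2 arrays of day 0 stood apart from each other, with 18 of the 57 genes more than 0.5 apart, against 2 to 8 for the other pairs of replicates. Over all probe sets 24.3% were that far apart at day 0, against 6.54% to 14.8% for the other pairs.

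In limma's F-test 31 of the 57 genes differed among the 5 groups (54.4%), close to the 51.3% of all probe sets. The median span of group means (the highest minus the lowest) was 0.68 for the 57 genes and 0.70 for all probe sets. Among the 26 bright genes 20 differed (76.9%), against 83.0% of all probe sets in the brightest 20%. Of the 31 that differed, 10 had their highest mean at day 15, 8 at day 0, 8 in SCGB3A2-, 3 at day 22 and 2 in SCGB3A2+ cells. The lowest mean was that of day 0 for 14 and that of SCGB3A2+ for another 14. Over all 57 genes, called or not, the lowest mean was at day 0 for 18 and in SCGB3A2+ cells for 21. For all probe sets these counts were 6095 and 4920 of 23786. In the brightest 20% they were 1781 and 1179 of 4758, against 11 and 10 of the 26 bright genes. The highest mean was at day 15 for 17 of the 57 genes and for 4563 of all probe sets.

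**Figure D1:**
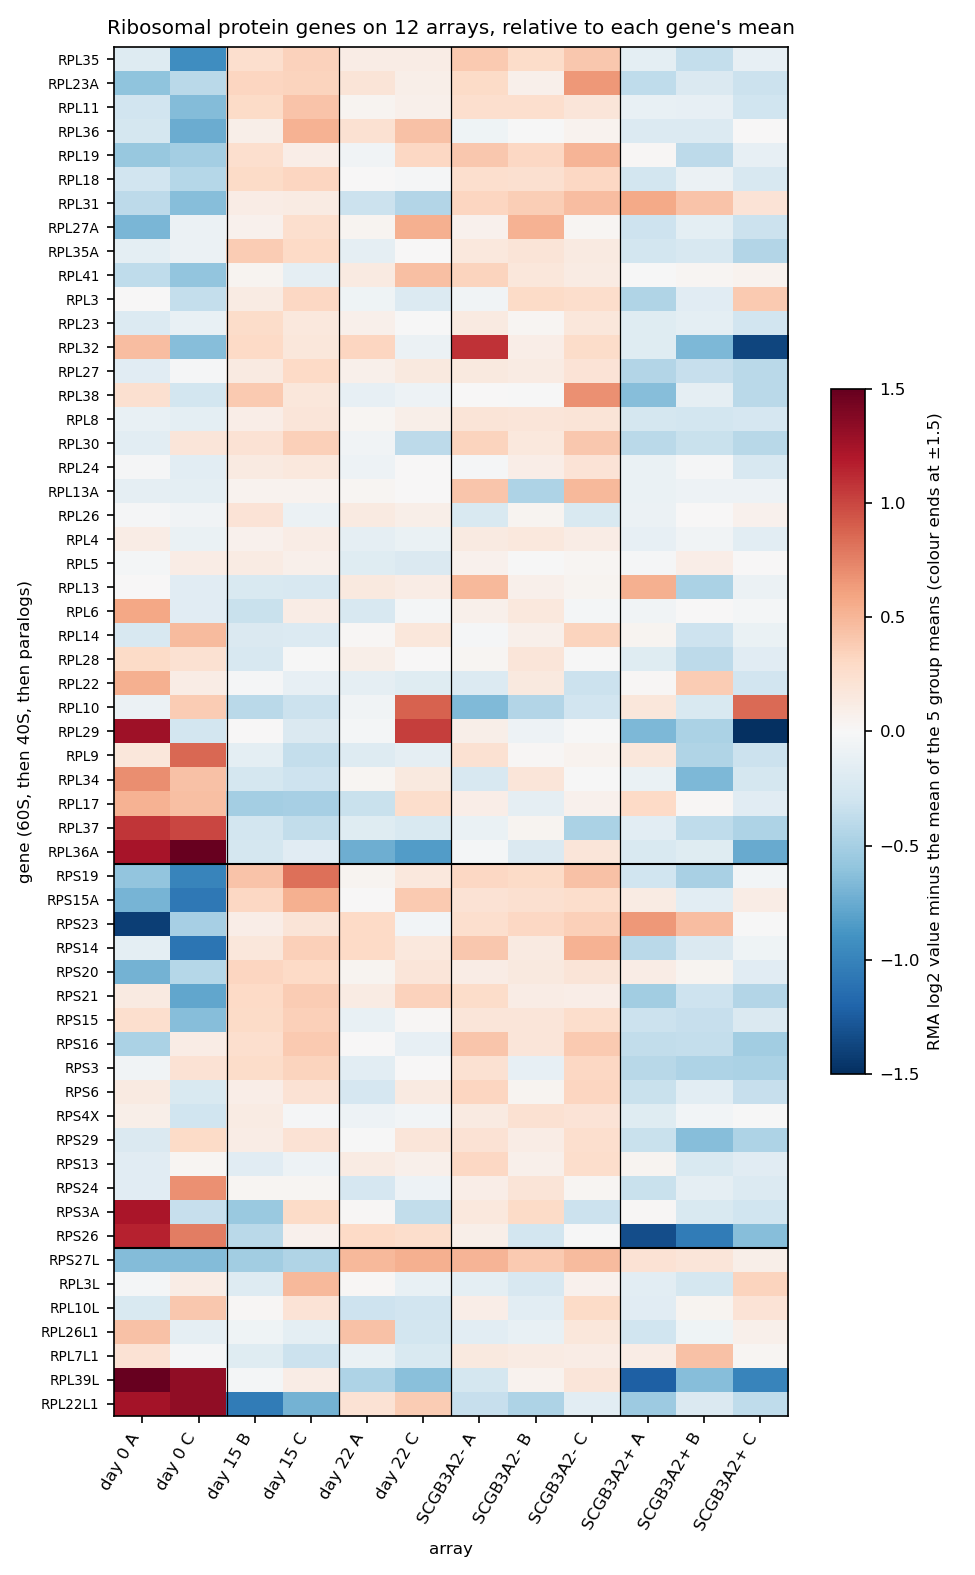
Each row is 1 of the 57 ribosomal protein genes (60S, then 40S, then paralogs, each ordered by the difference of day 15 from day 0) and each column 1 of the 12 arrays. Colour is the RMA log2 value minus the mean of the gene's 5 group means. Many 60S and 40S genes are below their mean at day 0 and in SCGB3A2+ cells and above it at day 15 and in SCGB3A2- cells, while RPL36A, RPL37, RPS26, RPL39L and RPL22L1 are highest at day 0.

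Sorted lung progenitors were first set against the stem cells from which they were made. At day 15, 15 of the 57 genes were higher (26.3%) and 8 were lower (14.0%) at an adjusted p under 0.05, against 16.2% and 15.3% of all probe sets. Among all probe sets in the brightest 20%, 31.8% were higher and 19.9% lower. Of the 26 bright genes 12 were higher and 2 lower (median difference 0.41). Of the other 31 genes 3 were higher and 6 lower (median -0.15). The median difference was 0.19 for the 57 genes, -0.05 for all probe sets and 0.12 for all probe sets in the brightest 20%. By subunit, 5 of 16 40S genes were higher and 1 lower, and 10 of 34 60S genes were higher and 5 lower.

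RPS19, a 40S protein mutated in Diamond-Blackfan anaemia, was 8.996 and 8.59 on the day 0 arrays A and C and 10.02 and 10.41 on the day 15 arrays B and C. Both day 15 arrays were above both day 0 arrays, and the difference was 1.42 ± 0.20 (adjusted p = 0.000172). RPS15A, a 40S protein, stood at 6.57 and 6.19 at day 0 and at 7.57 and 7.79 at day 15. It was higher by 1.30 ± 0.18 (adjusted p = 0.000205), again without overlap. RPL11, which with RPL5 and 5S RNA forms the particle that can inhibit MDM2, rose from 9.35 and 8.98 to 9.93 and 10.07 (0.83 ± 0.15, adjusted p = 0.0013). Its partner RPL5 did not pass, at 11.37 and 11.51 against 11.53 and 11.48 (0.06 ± 0.13, adjusted p = 0.762).

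Further increases were those of RPS23 (1.10 ± 0.28), RPS14 (0.89 ± 0.26), RPS20 (0.88 ± 0.15), RPL35 (0.86 ± 0.21), RPL23A (0.83 ± 0.18) and RPL36 (0.81 ± 0.19). RPL19, RPL18, RPL31, RPL35A, RPL41 and RPL23 completed the 15, with differences from 0.72 down to 0.38. RPS6, the 40S protein phosphorylated by S6 kinase, stood at 9.04 and 8.67 at day 0 and at 9.002 and 9.12 at day 15 (0.20 ± 0.18, adjusted p = 0.462). Of the 11 risen genes with a promoter window 10 had a TOP start, as did 3 of the 6 lower and 18 of the 30 others.

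**Figure D2:**
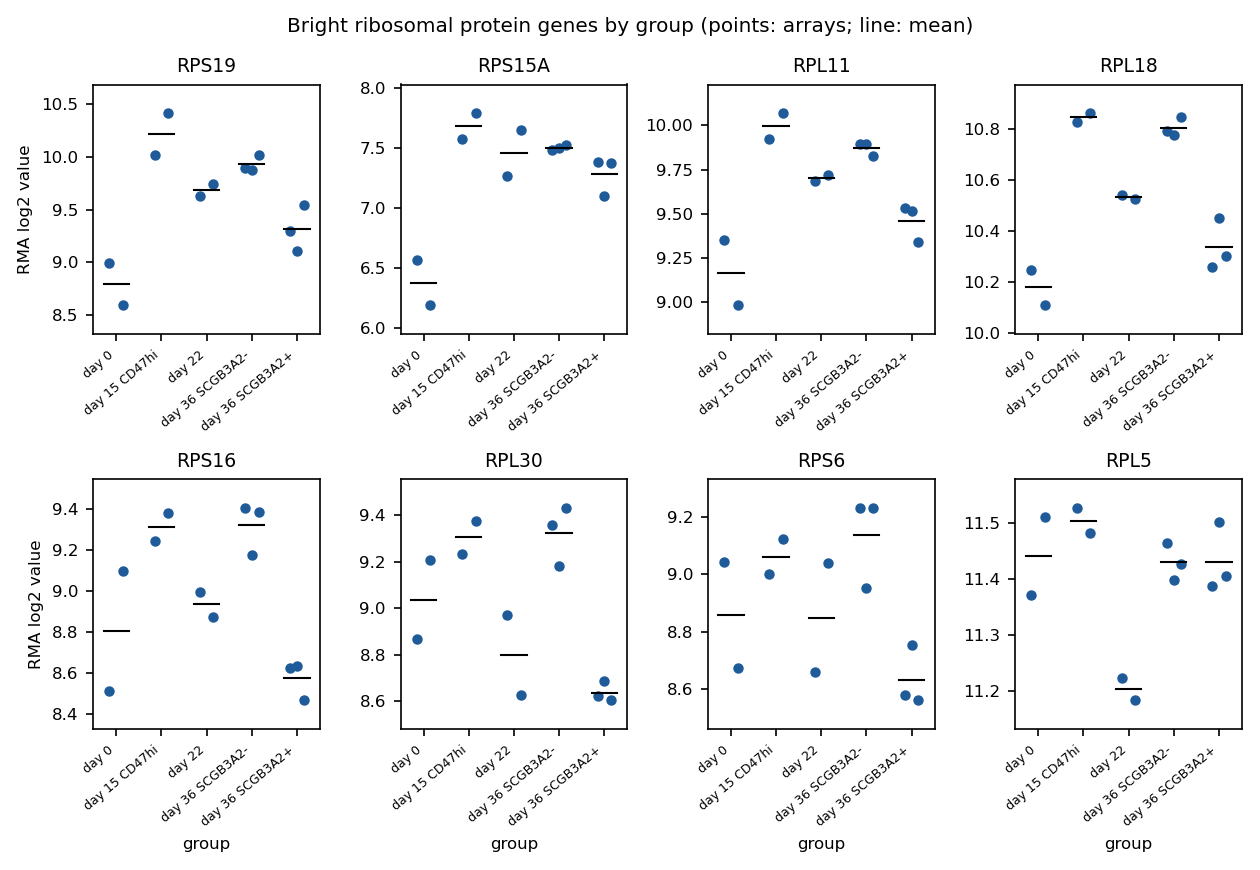
RMA log2 values of 8 bright ribosomal protein genes by group, with points for arrays and a line for the group mean. RPS19, RPS15A, RPL11 and RPL18 are lowest at day 0, RPS16, RPL30 and RPS6 are lowest in SCGB3A2+ cells, and RPL5 spans 0.30 between its group means.

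The largest decrease at day 15 was that of the paralog RPL22L1, which was 5.88 and 5.96 at day 0 and 3.58 and 3.93 at day 15, with no overlap. The difference was -2.16 ± 0.17 (adjusted p = 2.62e-06), a 4.48-fold lower signal. RPL36A, a 60S protein near the exit site for tRNA, went from 5.01 and 5.37 to 3.51 and 3.60 (-1.63 ± 0.21, adjusted p = 0.000116). The paralog RPL39L went from 5.81 and 5.54 to 4.17 and 4.31 (-1.43 ± 0.21, adjusted p = 0.000272). RPL37, a 60S protein, went from 6.95 and 6.88 to 5.61 and 5.51 (-1.36 ± 0.18, adjusted p = 0.000112).

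RPS26, a 40S protein at the mRNA exit channel, went from 6.27 and 5.89 to 4.71 and 5.18 (-1.13 ± 0.24, adjusted p = 0.00339). The other decreases were those of RPL17 (-0.99 ± 0.21), RPL34 (-0.86 ± 0.20) and RPL9 (-0.76 ± 0.24). In each of the 8 lower genes the day 0 arrays lay above the day 15 arrays. With 2 arrays in each group this was also so for RPL10, RPL13, RPL22, RPL28 and RPL7L1, which did not pass (limma adjusted p from 0.0665 to 0.728). Such separation adds no separate support, and its share over all probe sets was not counted.

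Some of these calls rested on 1 array. Without day 0 C, limma's adjusted p rose to 0.258 for RPL9 and to 0.188 for RPS14, and without day 0 A it was 0.0734 for RPS23. Without day 15 C, 9 genes were higher instead of 15, and a fit of only the 4 arrays of day 0 and day 15 gave 7 higher and 7 lower. Without either day 0 array in turn, 14 and 12 genes were higher and 10 and 9 lower.

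Genes that make and assemble ribosomal RNA were counted beside the ribosomal proteins. Of 46 RNA polymerase I and rRNA processing genes 24 were lower at day 15, and limma called 0 higher (1 at an unadjusted p under 0.05), with a median difference of -0.58. DDX21, a nucleolar RNA helicase, fell by 1.31 (SE 0.13), UTP20, a component of the small-subunit processome, by 1.25 (SE 0.13), NOP56, a box C/D snoRNP core protein, by 1.21 (SE 0.15), and POLR1B, the second largest subunit of RNA polymerase I, by 1.08 (SE 0.14). Of 45 genes for 40S and 60S assembly 20 were lower and 1 higher (median -0.41), with the giant remodelling ATPase MDN1 at -2.21 ± 0.14 and PAK1IP1 at -1.25 ± 0.13. Of 13 snoRNA host genes 6 were lower and 1 higher, among them SNHG12 (-1.94 ± 0.15) and SNHG3 (-1.98 ± 0.16). The lists were counted in the same fit, and the difference between lists was not tested.

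Translation factors, several with TOP mRNAs, had 5 of 12 genes higher and 1 lower, with the initiation factor subunits EIF3F at 1.17 ± 0.21 and EIF3H at 0.67 ± 0.14 and the helicase EIF4A2 at -0.86 ± 0.14. Mitochondrial ribosomal protein genes had 7 of 76 higher and 20 lower, with MRPL53 at 0.99 ± 0.12 and MRPL32 at -1.44 ± 0.21. The lower count of that list ranged from 9 to 24 over the alternatives. Of 24 mTORC1 regulators and LARP1, 12 were higher and 3 lower. SESN1 (2.72 ± 0.17), DDIT4 (2.48 ± 0.19) and SESN3 (2.06 ± 0.19) are known as inhibitors of mTORC1, and RRAGC (1.52 ± 0.16) as one of its activators. SESN1 also stands on the list of p53 targets, of which 9 of 16 were higher and 1 lower, including GDF15 (2.81 ± 0.22) and ZMAT3 (1.98 ± 0.15). MYC, a transcription factor known to drive ribosome production, was 6.62 and 5.61 at day 0 and 3.97 and 3.62 at day 15 (-2.32 ± 0.27, adjusted p = 5.11e-05). MYCL fell by 0.90 (SE 0.18), and MYCN had -0.52 ± 0.20 (adjusted p = 0.075). The cycling markers MKI67 (-0.41 ± 0.23, adjusted p = 0.219) and TOP2A (-0.01 ± 0.26, adjusted p = 0.987) did not pass.

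Against day 0 as well, the mean of both day 36 sorts asked which differences the late cells showed, and it shares the day 0 arrays with the comparison above. It had 14 of the 57 genes higher (24.6%) and 9 lower (15.8%), against 19.7% and 21.9% of all probe sets. Among all probe sets in the brightest 20%, 37.5% were higher and 26.3% lower. The median difference was 0.03, against -0.06 for all probe sets and 0.10 in the brightest 20%. Where the sorts lay on opposite sides of day 0, the mean of both describes neither sort. RPL35A had means of 10.63 at day 0, 10.91 in SCGB3A2- and 10.43 in SCGB3A2+ cells. RPL27 had 9.21, 9.47 and 8.91 in the same order. The largest increases were those of RPS23 (1.29 ± 0.23), RPS15A (1.02 ± 0.15), the paralog RPS27L (0.96 ± 0.10), RPL31 (0.91 ± 0.13), RPS19 (0.83 ± 0.16), RPS14 (0.68 ± 0.21), RPL19 (0.66 ± 0.14) and RPS20 (0.64 ± 0.12). The decreases were those of RPL39L (-1.95 ± 0.17), RPL22L1 (-1.64 ± 0.14), RPL36A (-1.62 ± 0.17), RPS26 (-1.49 ± 0.20), RPL37 (-1.29 ± 0.14), RPL34 (-0.75 ± 0.17), RPL9 (-0.56 ± 0.20), RPL17 (-0.46 ± 0.17) and RPL28 (-0.35 ± 0.12). Among the genes called in this comparison, arrays of day 0 and day 36 overlapped in RPL9, RPL11, RPL35 and RPS14.

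Without day 0 C, limma's adjusted p was 0.518 for RPL9, 0.455 for RPS14 and 0.0976 for RPL11 in this comparison, and with array weights it was 0.179 for RPL17. The median of the 57 genes had no stable sign here, being -0.08 when the arrays were centred on the brightest 20% of probe sets. That centring shifted all differences of this comparison by -0.10 and changed the counts to 13 higher and 10 lower.

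In the same comparison, of the 46 RNA polymerase I and rRNA processing genes 34 were lower and 1 higher (median -0.76), with UTP20 at -1.88 ± 0.11 and NOP56 at -1.53 ± 0.12. Of the 45 assembly genes 30 were lower and 2 higher (median -0.55). MDN1 stood at -2.64 ± 0.11, and SBDS, which releases the anti-association factor EIF6 from new 60S subunits, at 1.98 ± 0.14. SnoRNA host genes had 7 of 13 lower and 1 higher, the mitochondrial ribosomal protein genes 16 of 76 lower and 14 higher, and the translation factors 5 of 12 higher and 1 lower. Over the alternatives the mitochondrial ribosomal protein genes had 10 to 22 lower and 7 to 16 higher, and the translation factors 0 to 6 higher. Among the p53 targets 11 of 16 were higher and 1 lower, and among the mTORC1 list 11 of 24 were higher and 3 lower, with PDCD4, an inhibitor of the helicase EIF4A, at 3.69 ± 0.15. MYC had means of 6.12 at day 0, 5.98 in SCGB3A2- and 6.25 in SCGB3A2+ cells, whereas MYCN was lower by -1.72 ± 0.17 and MXD1, a MYC antagonist, higher by 3.37 ± 0.23.

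**Figure D3:**
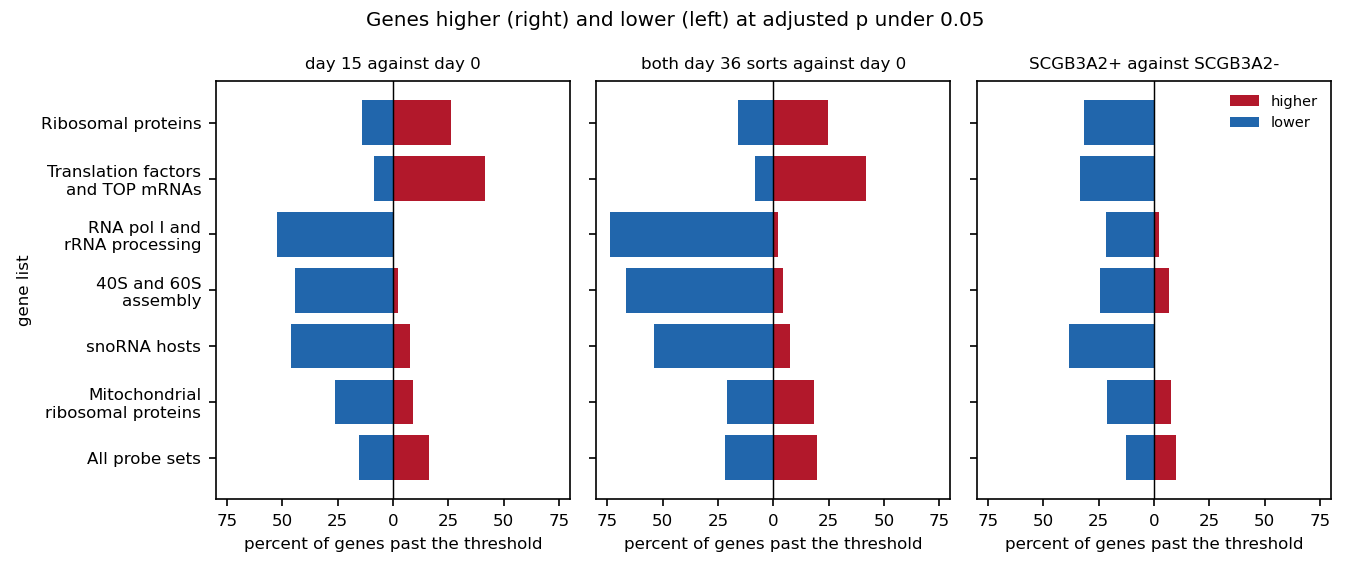
Percent of the genes of each list that were higher (bars to the right) or lower (bars to the left) at a limma adjusted p under 0.05 in 3 comparisons, of which the first pair shares the day 0 arrays. Against day 0, RNA polymerase I and rRNA processing genes are mostly lower (24 and 34 of 46), while ribosomal protein genes have more higher than lower calls. In SCGB3A2+ against SCGB3A2- cells the ribosomal protein bar lies on the lower side, with 18 of 57 genes.

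From day 15 to day 22 few ribosomal protein genes changed. At day 22, 2 of the 57 were higher (3.51%) and 1 lower (1.75%), against 8.95% and 10.6% of all probe sets, with a median difference of -0.10 against -0.01. The paralog RPL22L1 rose from 3.58 and 3.93 to 4.85 and 5.01, by 1.18 ± 0.17 (adjusted p = 0.000571), but both arrays stayed below those of day 0. The paralog RPS27L, whose transcription p53 is known to induce, rose from 7.05 and 7.12 to 8.05 and 8.10, by 0.99 ± 0.13 (adjusted p = 0.000208). RPL31, a 60S protein at the mouth of the exit tunnel, fell from 5.66 and 5.67 to 5.22 and 5.11, by 0.50 (SE 0.16, adjusted p = 0.0427). That call held in 9 of 19 settings, and its adjusted p was 0.194 without day 22 C.

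The liver genes moved strongly between the same groups, AFP from 4.05 to 11.40 and ALB from 2.87 to 11.13, and their part in these changes was not tested. Of the p53 targets 5 of 16 were higher and 1 lower at day 22, with CDKN1A (1.15 ± 0.21), GDF15 (1.13 ± 0.22) and TP53INP1 (1.15 ± 0.14) higher and SESN1 lower (-1.82 ± 0.17). RNA polymerase I and rRNA processing genes had 7 of 46 lower and 1 higher, and assembly genes 5 of 45 lower and 2 higher, with RRS1 at -1.28 ± 0.14 and SBDS at 1.15 ± 0.17. Mitochondrial ribosomal protein genes had 9 of 76 higher and 1 lower, with MRPL41 at 0.83 ± 0.17. Over the alternatives the lower genes numbered 4 to 12 for rRNA processing and 2 to 6 for assembly, and the higher genes 2 to 12 for mitochondrial ribosomal proteins. MYC rose by 1.79 ± 0.27 from its low at day 15, and MYCN fell by 1.43 (SE 0.20).

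The next comparisons asked how each day 36 sort differs from day 22, and they share the day 22 arrays. In SCGB3A2+ cells 1 of the 57 genes was higher (1.75%) and 4 lower (7.02%), against 6.75% and 7.71% of all probe sets, with a median difference of -0.22. In SCGB3A2- cells 2 were higher (3.51%) and 1 lower (1.75%), against 3.75% and 4.15%, with a median of 0.13. The median over all probe sets was within 0.01 of 0 in both.

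RPL31 was 5.22 and 5.11 at day 22, 5.87, 5.92 and 6.01 in SCGB3A2- and 6.12, 5.98 and 5.75 in SCGB3A2+ cells, so that the arrays of either sort lay above those of day 22. The differences were 0.77 ± 0.14 (adjusted p = 0.00648) and 0.78 ± 0.14 (adjusted p = 0.00424). RPL22L1 was 4.29, 4.17 and 4.47 in SCGB3A2- and 4.08, 4.41 and 4.26 in SCGB3A2+ cells, below day 22 by -0.62 ± 0.16 and -0.68 ± 0.16. RPL36A was 3.04 and 2.94 at day 22 and 3.74, 3.55 and 3.95 in SCGB3A2- cells (0.76 ± 0.19, adjusted p = 0.0348), where all 3 arrays were higher. In SCGB3A2+ cells RPL36A differed from day 22 by 0.40 ± 0.19 (adjusted p = 0.209).

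RPS26 was 5.42 and 5.38 at day 22 and 3.79, 4.08 and 4.48 in SCGB3A2+ cells, lower on each array (-1.28 ± 0.22, adjusted p = 0.00309). RPS29, a zinc-binding 40S protein, was lower by -0.56 ± 0.17 and RPL27, a 60S protein, by -0.51 ± 0.12. Without day 22 C the adjusted p was 0.0568 and 0.0657 for RPL31 in SCGB3A2+ and SCGB3A2-, 0.135 and 0.217 for RPL22L1, 0.195 for RPL36A, 0.269 for RPS29 and 0.13 for RPL27, whereas RPS26 passed in all 19 settings. RNA polymerase I and rRNA processing genes had 6 of 46 higher in SCGB3A2- cells, among them MPHOSPH10 (0.90 ± 0.17) and the snoRNP methyltransferase FBL (0.49 ± 0.12). In SCGB3A2+ cells 1 was higher and 2 were lower. Over the alternatives the higher count in SCGB3A2- cells ranged from 0 to 7, and the SCGB3A2+ cells had 1 to 2 higher and 0 to 3 lower.

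The comparison of the 2 sorts of day 36 asked how SCGB3A2+ cells differ from SCGB3A2- cells of the same age. In SCGB3A2+ cells 18 of the 57 genes were lower (31.6%), against 12.8% of all probe sets, and limma called 0 higher, against 10.1%. At an unadjusted p under 0.05, 28 were lower and 1 higher. The median difference was -0.31 for the 57 genes, 0.02 for all probe sets and -0.07 for the brightest 20%, and 48 of the 57 differences were negative. The lower genes were 7 of 16 40S genes, 10 of 34 60S genes and 1 of 7 paralogs, and in all 18 the arrays of the sorts did not overlap. The same arrays gave the calls, so this adds no separate support. The arrays did not overlap in several genes that did not pass either, among them RPL10, RPS27L, RPL23, RPL4 and RPS15. The share of such genes over all probe sets was not counted.

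Among the 40S genes, RPS26 was 5.20, 4.84 and 5.11 in SCGB3A2- and 3.79, 4.08 and 4.48 in SCGB3A2+ cells. RPS16, a 40S protein that reaches toward the decoding site, was 9.41, 9.18 and 9.39 against 8.63, 8.64 and 8.47. Each SCGB3A2+ array was below each SCGB3A2- array in both genes, with differences of -0.94 ± 0.20 (adjusted p = 0.00461) and -0.75 ± 0.15 (adjusted p = 0.00406). RPS19 was 9.89, 9.88 and 10.02 against 9.29, 9.10 and 9.54 (-0.62 ± 0.16, adjusted p = 0.0153). RPS29 (-0.68 ± 0.15), RPS3 (-0.60 ± 0.14), RPS21 (-0.59 ± 0.19) and RPS6 (-0.51 ± 0.15) were the other lower 40S genes.

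Among the 60S genes, RPL32 had the largest difference and a wide spread, with 4.95, 3.97 and 4.14 in SCGB3A2- and 3.69, 3.19 and 2.49 in SCGB3A2+ cells (-1.23 ± 0.35, adjusted p = 0.0262). RPL30 was 9.36, 9.18 and 9.43 against 8.62, 8.68 and 8.60 (-0.69 ± 0.14, adjusted p = 0.00353). RPL8 was 10.72, 10.71 and 10.72 against 10.26, 10.25 and 10.27 (-0.45 ± 0.10, adjusted p = 0.00578), so that the replicates of either sort lay within 0.02 of each other. RPL23A (-0.65 ± 0.15), RPL19 (-0.57 ± 0.14), RPL35 (-0.57 ± 0.17), RPL27 (-0.56 ± 0.11), RPL35A (-0.48 ± 0.11), RPL18 (-0.47 ± 0.11) and RPL11 (-0.41 ± 0.12) were lower as well. The paralog RPL39L was 3.94, 4.26 and 4.39 against 2.98, 3.57 and 3.22, with no overlap (-0.94 ± 0.17, adjusted p = 0.00193).

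Other genes had differences near 0. RPL5 was 11.46, 11.40 and 11.43 against 11.39, 11.50 and 11.40 (0.00 ± 0.10, adjusted p = 0.996), and RPL31 (0.02 ± 0.13), RPL17 (0.04 ± 0.17) and RPS23 (0.06 ± 0.23) did not pass. RPL10, a dim probe set, had the largest positive difference (0.73 ± 0.28, adjusted p = 0.0916). Of the 26 genes in the brightest 20% 13 were lower, against 24.1% of all probe sets among the brightest 20%. Among the 14 lower genes with a promoter window 9 had a TOP start, as did 22 of the 33 others.

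**Figure D4:**
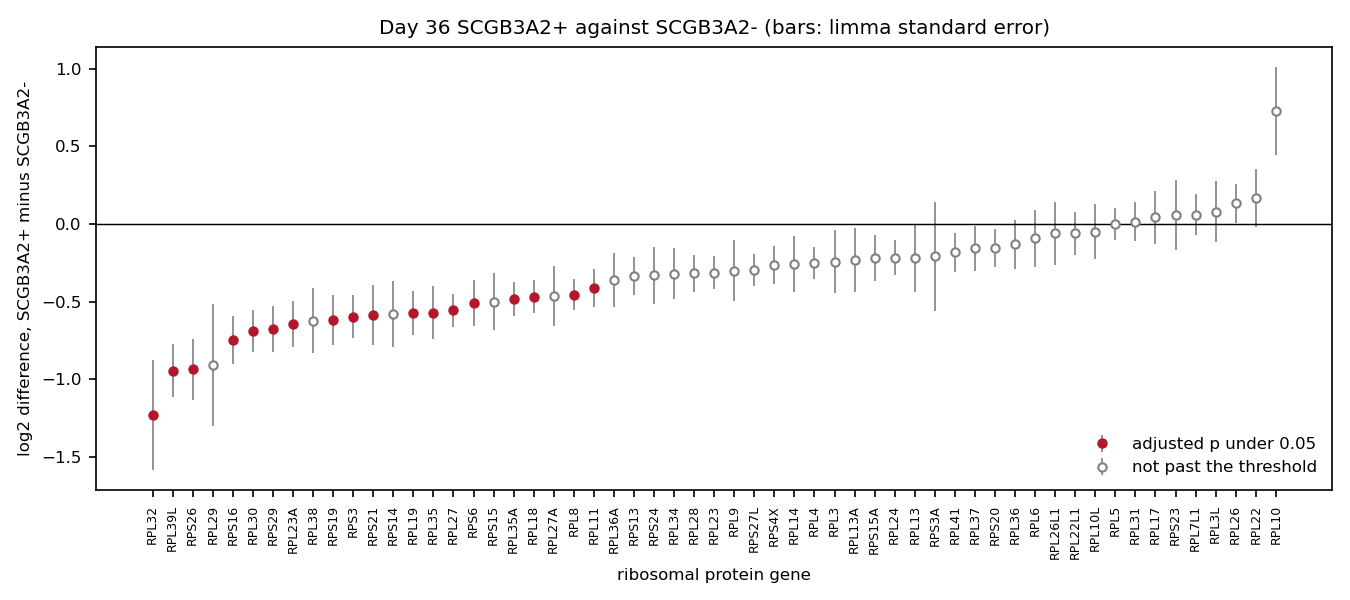
Log2 difference of SCGB3A2+ from SCGB3A2- cells for each of the 57 ribosomal protein genes, ordered by size, with limma's standard error as bars. Filled points passed an adjusted p of 0.05. 48 of the 57 points lie below 0, from RPL32 at -1.23, and RPL10 at 0.73 is the highest point.

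With the replicate letter of the labels as a block, 16 genes were lower and 1 higher. RPS21 (adjusted p = 0.0679) and RPS6 (0.051) no longer passed in that fit, and RPL10 did (0.0272). Leaving out 1 array at a time gave 12 to 24 lower genes, the fewest without SCGB3A2- C. In single omissions the adjusted p was 0.108 for RPL11 without SCGB3A2+ C, 0.105 for RPL32 without SCGB3A2- A, 0.105 for RPS6 without SCGB3A2- C and 0.0613 for RPS19 without SCGB3A2- C.

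The same sorts differed in cycling markers. MKI67 was 7.56, 7.67 and 7.79 in SCGB3A2- and 6.23, 7.06 and 6.96 in SCGB3A2+ cells (-0.93 ± 0.19, adjusted p = 0.0041), and TOP2A had means of 8.32 and 7.55 (-0.76 ± 0.21, adjusted p = 0.0217). AFP had means of 11.36 and 9.94 and ALB of 11.16 and 10.98. The part of cell division or of liver-like cells in the ribosomal protein differences was not tested.

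The other lists of ribosome production are set beside the 12.8% of all probe sets, and 24.1% of the brightest 20%, that were lower in SCGB3A2+ cells. RNA polymerase I and rRNA processing genes had 10 of 46 lower and 1 higher (median -0.24), with FBL at -0.78 ± 0.11 and MPHOSPH10 at -0.82 ± 0.15. Assembly genes had 11 of 45 lower and 3 higher (median -0.17), with EIF6 at -0.64 ± 0.10 and NLE1 at -0.92 ± 0.16. Of 13 snoRNA host genes 5 were lower and, in limma's test, 0 higher (also 0 at an unadjusted p under 0.05), with SNHG8 at -0.71 ± 0.13. Translation factors had 4 of 12 lower and 0 higher (2 at an unadjusted p under 0.05), with EIF3K at -0.64 ± 0.13. Mitochondrial ribosomal protein genes had 16 of 76 lower and 6 higher, with MRPS12 at -0.93 ± 0.16 and MRPS5 at 0.65 ± 0.11. Over the alternatives and single omissions the number of lower genes ranged from 8 to 17 for RNA polymerase I and rRNA processing, from 6 to 13 for assembly, from 2 to 7 for snoRNA hosts, from 1 to 6 for translation factors and from 10 to 19 for mitochondrial ribosomal proteins.

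Of the 24 genes on the mTORC1 list 8 were higher and 3 lower. PDCD4 (1.90 ± 0.15), SESN3 (1.59 ± 0.16) and CASTOR1, an arginine sensor that inhibits mTORC1 (1.51 ± 0.21), were higher, and EIF4EBP1, the translational repressor that mTORC1 phosphorylates, was lower (-1.28 ± 0.19). Of 16 p53 targets 7 were lower, among them TNFRSF10B (-0.72 ± 0.11) and BAX (-0.92 ± 0.17). MXD1 was higher by 1.86 ± 0.23, while MYC (0.27 ± 0.22, adjusted p = 0.465) and MYCN (-0.46 ± 0.17, adjusted p = 0.0696) did not pass. Ribosome quality control and recycling genes had 2 of 14 higher and 2 lower.

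The paralogs followed no common course over the 5 groups. RPL39L had the widest span of group means of all 57 genes (2.42), from 5.67 at day 0 to 3.25 in SCGB3A2+ cells, followed by RPL36A (2.20), RPL22L1 (2.16), RPS26 (1.96) and RPS19 (1.42). RPL22L1 had means of 5.92, 3.75, 4.93, 4.31 and 4.25 in the order of day 0, day 15, day 22, SCGB3A2- and SCGB3A2+. Its partner RPL22, known to repress RPL22L1 by binding its transcript in mouse cells, had 4.91, 4.53, 4.44, 4.47 and 4.64 and did not pass in any of the 6 comparisons (adjusted p from 0.147 to 0.97). RPS27L had 6.91, 7.08, 8.08, 8.03 and 7.73, and its difference between the sorts missed the threshold (-0.30 ± 0.10, adjusted p = 0.0577).

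RPL7L1 had means between 7.59 and 8.04, and RPL26L1 between 3.38 and 3.65, and neither passed the F-test (adjusted p = 0.0837 and 0.821). The muscle paralog RPL3L and the germ-line paralog RPL10L stayed near the floor on all 12 arrays, at 2.11 to 2.86 and 0.92 to 1.64. RPL36AL, the autosomal copy of the X-linked RPL36A, has a symbol outside the chosen form and had means of 8.27, 8.11, 8.59, 8.79 and 8.63. It was higher at day 22 than at day 15 (0.48 ± 0.13, adjusted p = 0.0232) and higher at day 36 than at day 0 (0.45 ± 0.11, adjusted p = 0.00481), while RPL36A was lower at day 36 than at day 0.

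**Figure D5:**
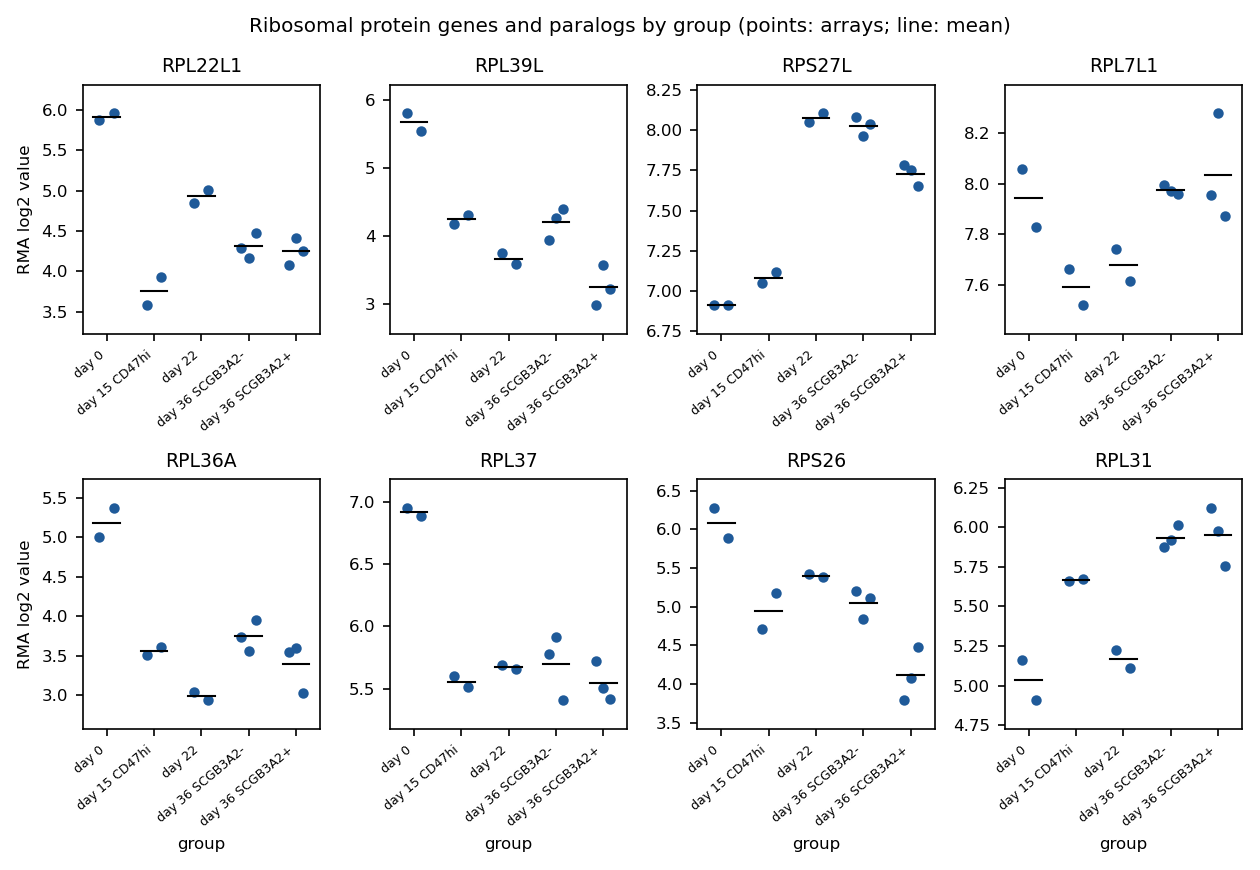
RMA log2 values of 4 paralogs (RPL22L1, RPL39L, RPS27L, RPL7L1) and of RPL36A, RPL37, RPS26 and RPL31 by group, with points for arrays and a line for the group mean; each panel has its own scale. RPL22L1, RPL39L, RPL36A, RPL37 and RPS26 are highest at day 0, and RPS27L is above 7.6 on every array from day 22 on.

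The narrowest spans were those of RPL26 (0.25), RPL4 (0.25), RPL3L (0.25), RPL26L1 (0.26) and RPL24 (0.27). RPL26 and RPL3L lay near the floor and RPL4 and RPL24 near the top of the scale, and differences can be compressed at either end. RPL4, a 60S protein with a long loop into the exit tunnel, ranged from 10.33 to 10.65 and RPL24, a 60S protein at the subunit interface, from 11.13 to 11.58 over the 12 arrays. Across the 12 arrays the median pairwise correlation was 0.49 among the 26 bright genes, 0.08 among the other 31 and 0.03 among all probe sets in the brightest 20%. These correlations describe arrays that share groups and normalization.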

How the data were processed

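RNA of 12 RUES2 samples, purified with QIAzol and an RNeasy kit and then biotin-labelled, was measured on Affymetrix arrays, per the labels' protocols. The deposited table holds 1 log2 value for each of 23786 probe sets per array. RMA (affy 1.36.1, R 2.15.1) made these log2 values, per the submitters' processing notes. Probe sets carry NCBI gene numbers. GEO's platform annotation named 22458 of them and left 1328 without a symbol. The annotation release was not given in the sources at hand. The precision is limited by the number of arrays.

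A linear model (limma 3.58.1, R 4.3.3, functions lmFit and eBayes) held a mean for each group over all 12 arrays, leaving 7 residual degrees of freedom. Tests were two-sided, and the p-values of each comparison were adjusted by Benjamini and Hochberg's method across the 23786 probe sets, with a threshold of 0.05. The fit was tested on simulated data. The members and gene lists were chosen with earlier results of these data known. In each comparison the genes named were the 8 largest increases and decreases past the threshold, the paralogs and their partners, RPL5, RPL11, RPS6, RPS19, RPL36AL, the widest and narrowest spans, and up to 4 genes of each other list with the smallest adjusted p. Further names complete a count.

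Replicate letters were checked for pairing by the correlation of deviations from group means over all probe sets. For the 2 sorts of day 36 it was 0.104 (A), 0.124 (B) and 0.111 (C), so the letters were taken to pair these arrays. The main fit did not use this pairing. Each array was left out in turn, and the fit, scaling, filter and gene list were varied.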

Additional observations from a re-analysis of the deposited data

Results flagged for a closer look

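In 8 ribosomal protein genes with a called difference between the sorts of day 36, the sorts lay on opposite sides of day 22. Every SCGB3A2- array was above and every SCGB3A2+ array below both day 22 arrays. The same rule in either direction (such a pattern, or departures from day 22 called in opposite directions, with a called difference between the sorts) held for 7.17% of all probe sets and 15.9% of the brightest 20%, and with SCGB3A2+ as the lower sort for 3.97% and 8.93%. The difference between the 2 departures from day 22 equals that between the sorts, so the rule itself required that it passed limma's threshold. It was -0.94 for RPL39L, -0.75 for RPS16, -0.62 for RPS19 and -0.57 for RPL35. For RPL35A, RPL18, RPL8 and RPL11 it was -0.48, -0.47, -0.45 and -0.41. No single departure of these 8 genes from day 22 passed, with adjusted p from 0.0725 (RPL8 in SCGB3A2+) to 0.586 (RPL8 in SCGB3A2-). RPS15 and RPL38 had the same placing of arrays, but limma did not call their difference between the sorts (adjusted p = 0.0735 and 0.0537).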

How the results depend on the processing

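Of the values of named genes under the alternatives, 2262 kept their side of the threshold, 101 lost their call and 20 gained one. None changed sign among called genes, but differences near 0 that were not called could change sign. Counts moved by more than 1.5 times in the following cases, and the cause was not tested. At day 15 against day 0, a fit of only the arrays compared gave 7 higher genes (15 with all arrays). At day 22 against day 15, lower genes (1) numbered 2 in that fit, 6 with an intensity trend and robust variances, 4 with array quality weights, 3 without dim probe sets, 3 with arrays centred on their median and 0 with the replicate letter as a block, and higher genes (2) numbered 1 with the changed member list, which takes out the paralogs and adds RPL36AL. In SCGB3A2+ cells against day 22, the intensity trend gave 2 higher (1) and 9 lower genes (4), and leaving out dim probe sets gave 8 lower. In SCGB3A2- cells against day 22, the trend gave 4 higher genes (2), the block gave 1 higher and 0 lower, and the changed member list gave 0 lower (1).

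Leaving out 1 array at a time gave 9 to 14 higher genes for day 15 against day 0. For day 22 against day 15 it gave 2 to 4 higher and 0 to 4 lower, for SCGB3A2+ against day 22 0 to 2 higher and 1 to 7 lower, and for SCGB3A2- against day 22 0 to 3 higher and 0 to 1 lower. For SCGB3A2+ against SCGB3A2- it gave 0 to 1 higher. Without 1 of 2 arrays the lone array was assumed to vary like the other groups. With the replicate block 1 gene was higher in SCGB3A2+ than in SCGB3A2- cells (0 without it). The block changed the calls of RPS21, RPS6 and RPL10 there. Outside the day 36 sorts pairing by letter was left undecided. Deviations of same-lettered arrays correlated at 0.126 and 0.114 for day 22 and SCGB3A2-, about as high as between the sorts. Elsewhere they correlated at -0.01 to 0.06. The block used the letters in every group all the same. Arrays of 2 or 3 replicates and compressed low signals limit what the 7 dim genes can show.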
